A study of Mus musculus with 9 samples.

Results

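The genes of the integrin and laminin families were followed in whole hearts of mice before and after birth. They were taken by symbol from the deposited expression table, as every gene named as an integrin α subunit, an integrin β subunit or a laminin α, β or γ chain. This gave 37 members of 48820 genes, 26 of integrins and 11 of laminins. RNA was sequenced from 9 untreated wild-type C57BL/6J hearts, with 3 biological replicates each at embryonic day 18.5 (E18.5d), postnatal day 1 (P1d) and postnatal day 7 (P7d). The labels state sex as male for every heart. *Xist*, the RNA that silences 1 X chromosome in females, reached 58.03 to 97.03 FPKM in 4 hearts, E18.5d replicates 1 and 3 and P7d replicates 2 and 3. In these hearts 4 Y-linked genes were listed at 0, whereas in the other 5 hearts *Xist* was at most 0.11 FPKM and each Y-linked gene at least 9.74 FPKM. No P1d heart was among the 4, so sex is not balanced between the stages. FPKM are fragments per kilobase of transcript and 1e6 mapped fragments, so that levels of different genes can be set side by side. Read from the steps between low values, the depth per heart, in units of 1e6 fragments, was 25.5 to 46.25, and the members' own values rested on 2 fragments (*Itgae*, P1d replicate 3) to 75257 fragments (*Lamc1*).

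Integrins are paired receptors of an α and a β subunit that link the matrix outside a cell to its cytoskeleton. The α subunit largely sets which ligand is bound, and the receptors of muscle, vessels and fibroblasts mostly carry the β1 subunit. Laminins are cross-shaped proteins of 1 α, 1 β and 1 γ chain that build the basement membrane around each cardiomyocyte and below the endothelium. The chain that is made decides which integrin can bind, and the laminin α2 chain with its receptor integrin α7β1 is a main anchor of striated muscle, lost in forms of muscular dystrophy.

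The promoters of 3 laminin chains are shown because *Lama2* and *Lamb2* rose from stage to stage, whereas *Lamb1*, the other main β chain, did not pass the test. Each window is 300 bases around the RefSeq start (GRCm38.p6), most of it upstream of that start, read along the gene's strand. The outermost starts in GENCODE M21, by which gene positions are given further on, differ (27619758 for *Lama2*, 108479736 for *Lamb2* and 31265234 for *Lamb1*). By these the *Lama2* window lies within the gene, and the other windows span the start. *Lama2* lies at chr10:27616893-27617192 on the minus strand, *Lamb2* at chr9:108479612-108479911 on the plus strand and *Lamb1* at chr12:31265043-31265342 on the plus strand. Capitals mark E-boxes (CANNTG) and GC boxes (GGGCGG, written CCGCCC where it lies on the opposite strand). The marked letters do not overlap.
Lama2: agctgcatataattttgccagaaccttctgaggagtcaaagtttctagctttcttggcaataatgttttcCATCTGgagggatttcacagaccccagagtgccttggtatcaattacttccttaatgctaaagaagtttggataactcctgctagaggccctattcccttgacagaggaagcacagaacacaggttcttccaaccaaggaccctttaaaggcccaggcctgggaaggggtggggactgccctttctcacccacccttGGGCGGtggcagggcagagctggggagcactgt
Lamb2: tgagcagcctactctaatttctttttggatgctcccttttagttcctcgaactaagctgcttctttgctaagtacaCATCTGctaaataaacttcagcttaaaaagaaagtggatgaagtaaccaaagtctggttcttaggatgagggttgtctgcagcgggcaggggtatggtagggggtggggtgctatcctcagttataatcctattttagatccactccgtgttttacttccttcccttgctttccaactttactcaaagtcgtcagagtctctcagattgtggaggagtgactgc
Lamb1: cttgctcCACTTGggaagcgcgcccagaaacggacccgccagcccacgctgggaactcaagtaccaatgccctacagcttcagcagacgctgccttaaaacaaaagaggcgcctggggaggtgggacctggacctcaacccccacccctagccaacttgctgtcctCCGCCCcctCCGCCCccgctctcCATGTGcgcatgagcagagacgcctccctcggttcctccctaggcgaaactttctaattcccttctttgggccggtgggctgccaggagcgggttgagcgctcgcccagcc
The *Lamb1* sequence held 18 CG pairs at 63.7% GC and 2 GC boxes. That of *Lama2* held 1 CG pair at 50.3% GC and 1 GC box, and that of *Lamb2* 4 CG pairs at 44% GC and no GC box. All 3 held an E-box, *Lamb1* 2 of them. Among 32851 RefSeq promoters of this length, 72.3% held an E-box and 35.7% a GC box. These matches describe letters only, and binding was not measured.

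Requiring 1 FPKM or more on average of the 9 hearts kept 29 of the 37 members. They were fitted with all 13618 genes that passed it, by limma on log2(FPKM + 1), a scale on which changes at low FPKM come out too small. Between P7d and E18.5d, 12 members passed an adjusted p of 0.05, where 49.4% of all genes did. Of these 12, 6 were higher (12.5% of all genes) and 6 lower (36.9% of all genes). Between P1d and E18.5d 12 members passed (46% of all genes did), of which 4 were higher and 8 lower, where 18.4% and 27.6% of all genes were. Between P7d and P1d, 8 were higher and 1 was lower, where 15.5% and 28.6% of all genes were. The members' median log2 change was -0.011, 0.005 and 0.094 in these comparisons, and that of all genes was -0.173, -0.058 and -0.093. Scaling the columns by median of ratios moved the median of all genes to -0.018 at P7d against E18.5d, 0.002 at P1d against E18.5d and 0.001 at P7d against P1d, and the members' counts to 9 higher and 3 lower, 5 and 6, and 12 and 1. Of all genes, 21.3% were then higher and 20.9% lower, 23.2% and 22.9%, and 21.9% and 19.8%. Scaling to equal column sums gave 6 and 3, 2 and 10, and 9 and 1 members, and 9.3% and 32.6%, 8.63% and 34.5%, and 16.2% and 12.7% of all genes. The hearts of the 2 stages did not overlap for 16 members at P7d against E18.5d (62.5% of all genes), 17 at P1d against E18.5d (54.4%) and 12 at P7d against P1d (53.6%). A called change of at least 0.5 on the log2 scale with the hearts apart was seen for 7 members (22.9% of all genes), 4 (21.5%) and 6 (19%) in the same order. In all, 13 of the tested members passed in no comparison, where 28.2% of all genes did. In all 3 comparisons 4 members (*Itga7*, *Lama2*, *Lamb2* and *Lamc1*) and 12.4% of all genes passed. With the 5 hearts in which *Xist* was at most 1 FPKM (3 of them P1d, and 1 of each other stage), all 33 calls kept their sign and 4 stayed past the threshold. Those 4 were *Itga7* at P7d against both other stages, *Itga1* at P1d against E18.5d and *Itgb6* at P7d against P1d.

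**Figure D1:**
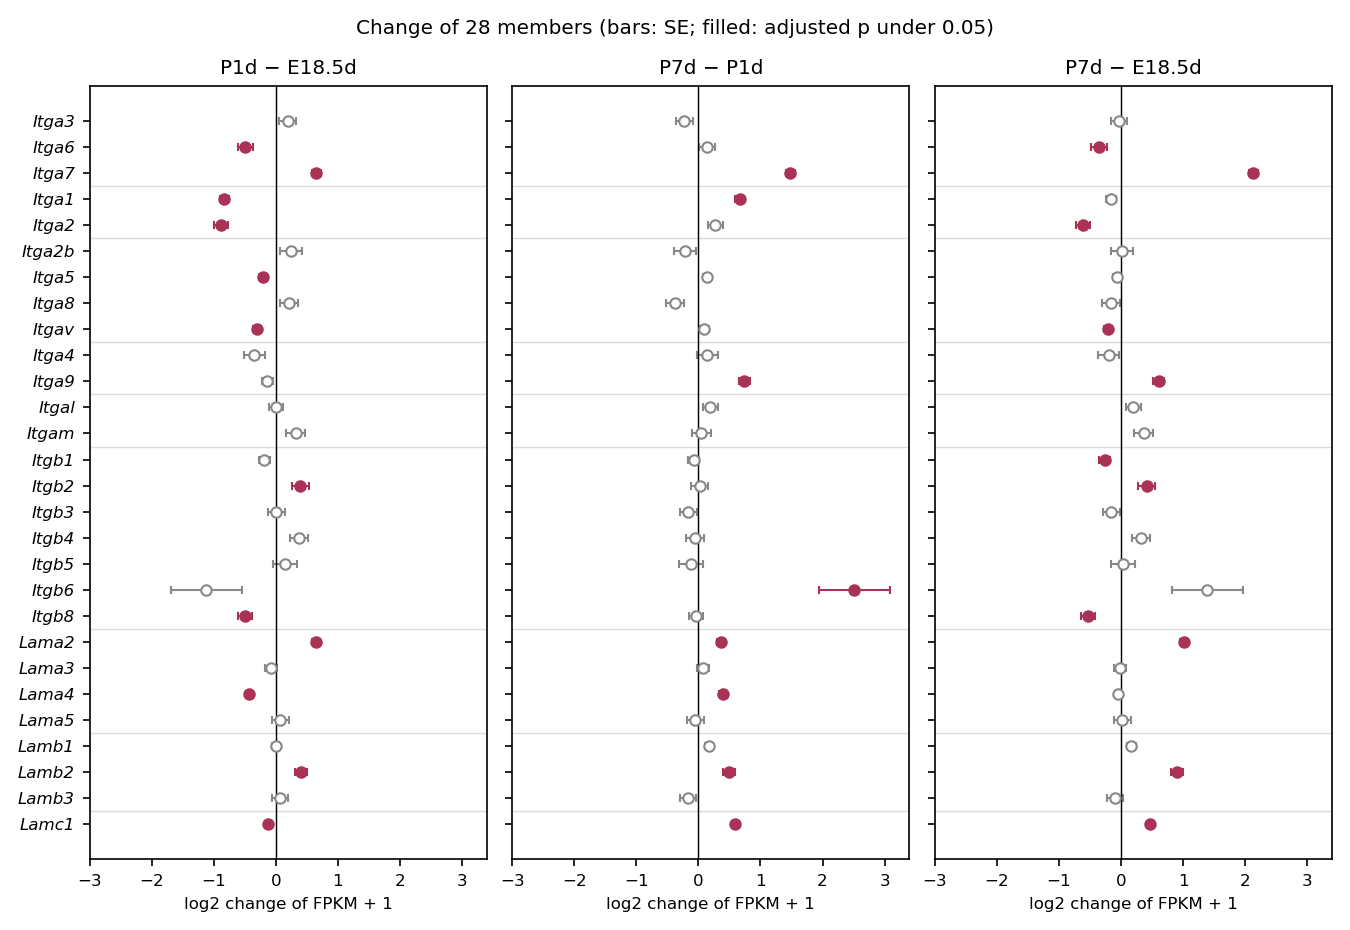
The log2 change of FPKM + 1 (x axes) of 28 tested members (y axis, grouped by role) is plotted for P1d minus E18.5d, P7d minus P1d and P7d minus E18.5d. Bars are standard errors from limma, and filled red points passed an adjusted p of 0.05. *Itga7* lies to the right of 0 in all 3 panels, and *Itgb6* has the widest bars.

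Laminin chains. Among the laminin α chains, *Lama2* rose at both steps, while *Lama4*, the α chain typical of vessels, fell by P1d and was back at its fetal level by P7d. *Lama2* (chr10:26980036-27619758, minus strand, GRCm38) spans 639.7 kb, and its longest coding transcript has 65 exons. It was at 54.06, 51.59 and 53.01 FPKM in the E18.5d hearts, 79.47, 92.25 and 79.49 FPKM in the P1d hearts and 110.28, 106.11 and 108.04 FPKM in the P7d hearts. No heart of a later stage was as low as any heart of an earlier one. Its mean was 2.04-fold higher at P7d than at E18.5d (log2 change 1.02, SE 0.07, limma adjusted p = 3.93e-06), 1.58-fold higher at P1d than at E18.5d (log2 change 0.65, adjusted p = 6.5e-05) and 1.29-fold higher at P7d than at P1d (log2 change 0.37, adjusted p = 0.00181).

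*Lama4* (chr10:38965515-39110188, plus strand) had 126.64 ± 4.32, 93.57 ± 4.02 and 122.92 ± 2.73 FPKM at E18.5d, P1d and P7d (mean ± SD, n = 3). The P1d hearts, at 89.14, 94.60 and 96.98 FPKM, lay below every heart of the other stages. It fell by 0.43 on the log2 scale from E18.5d to P1d (SE 0.05, adjusted p = 0.000207 by limma) and rose by 0.39 from P1d to P7d (adjusted p = 0.000447), and P7d against E18.5d gave -0.04 (adjusted p = 0.539). *Lama5*, a broadly made α chain, had 18.64, 19.70 and 18.94 FPKM and *Lama3*, an epithelial chain, 1.47, 1.33 and 1.45 FPKM as stage means, and neither passed in any comparison. *Lama1*, the chain of the early embryo, was at 0.04 to 0.29 FPKM and was not tested.

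The β chain *Lamb2*, found in basement membranes of muscle, nerve endings and kidney, also rose at both steps. *Lamb2* (chr9:108479736-108490530, plus strand) is compact, at 10.8 kb. Its values were 53.54, 61.80 and 52.14 FPKM at E18.5d, 73.22, 81.15 and 69.33 FPKM at P1d and 116.50, 104.47 and 95.12 FPKM at P7d. The hearts of the 3 stages did not overlap, although the P7d hearts spread the most. It rose by 0.90 on the log2 scale at P7d against E18.5d (SE 0.10, adjusted p = 7.36e-05 by limma) and 0.49 at P7d against P1d (adjusted p = 0.00281). At P1d against E18.5d it was 0.41 (adjusted p = 0.00636), a call that was lost with equal column sums (0.24, adjusted p = 0.0736). *Lamb1* (chr12:31265234-31329644, plus strand), the main β chain of the fetus, had 128.66 ± 1.93, 129.42 ± 11.6 and 144.86 ± 2.70 FPKM. Its change at P7d against E18.5d was 0.17 (adjusted p = 0.0544), and without P1d replicate 1 or 2 the adjusted p was 0.0491 or 0.0101. At P7d against P1d it was 0.17 (adjusted p = 0.066), and 0.24 without P1d replicate 2 (adjusted p = 0.00521). With median of ratios *Lamb1* was called higher at P7d than at E18.5d (0.35, adjusted p = 0.00233) and at P7d than at P1d (0.28, adjusted p = 0.00837). Quantile normalization called both as well (0.32, adjusted p = 0.00116, and 0.23, adjusted p = 0.00715). Equal column sums called only the latter (0.29, adjusted p = 0.013), the former being 0.13 (adjusted p = 0.193). With only the 2 stages compared by limma, the former had an adjusted p of 0.0118. *Lamb3*, an epithelial chain, had stage means of 3.24, 3.46 and 2.97 FPKM and did not pass.

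*Lamc1*, the γ chain of most laminins, was the highest laminin gene and rose from P1d to P7d. *Lamc1* (chr1:153218922-153332786, minus strand) was at 156.59, 156.98 and 153.89 FPKM at E18.5d, 138.71, 141.24 and 146.30 FPKM at P1d and 212.44, 211.30 and 222.84 FPKM at P7d. All P7d hearts lay above all earlier ones. The log2 change was 0.60 against P1d (SE 0.05, adjusted p = 3.04e-05 by limma) and 0.47 against E18.5d (adjusted p = 7.21e-05). The small difference at P1d against E18.5d (-0.13, adjusted p = 0.0495) passed narrowly and was lost in 16 of 19 alternatives. Leaving out any heart but P1d replicate 3 was enough, and over the alternatives the adjusted p ran from 0.0313 to 0.632.

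*Lamc3* was at 0.17 to 0.65 FPKM and was not tested. In whole hearts, fewer cells of a type and less RNA per cell cannot be told apart, here or for any other member.

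**Figure D2:**
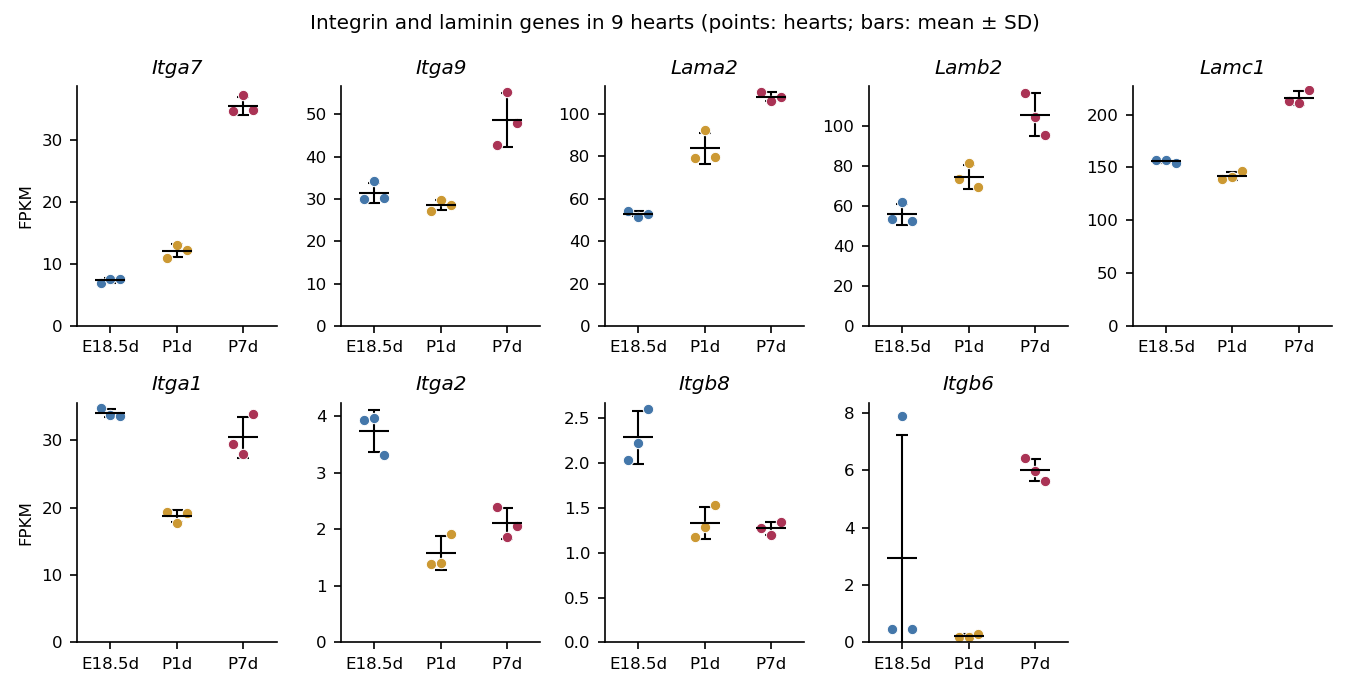
FPKM (y axes, each from 0) of 9 members with a called change of at least 0.5 on the log2 scale and stages that do not overlap, by stage (x axes). Points are hearts and bars are mean ± SD (n = 3), with the lower bar of *Itgb6* at E18.5d running below 0 and out of view. *Itga7*, *Lama2* and *Lamb2* step up at both intervals, *Itga1* dips at P1d, and 1 E18.5d heart stands apart for *Itgb6*.

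Laminin-binding integrins. *Itga7*, the laminin receptor subunit of heart and skeletal muscle, had the largest change of the members between P7d and E18.5d in the fit of all 9 hearts. *Itga7* (chr10:128933818-128958282, plus strand, 24.5 kb) was at 6.95, 7.55 and 7.52 FPKM at E18.5d, 11.00, 13.13 and 12.28 FPKM at P1d and 34.67, 37.24 and 34.80 FPKM at P7d. The stages were apart in every comparison, and most of the increase came after P1d. Its mean was 4.85-fold higher at P7d than at E18.5d (log2 change 2.13, SE 0.07, adjusted p = 1.64e-07 by limma) and 2.93-fold higher at P7d than at P1d (log2 change 1.48, adjusted p = 3.77e-06). At P1d it was 1.65-fold higher than at E18.5d (log2 change 0.65, adjusted p = 0.000124). In the 5 hearts with *Xist* at most 1 FPKM the change from E18.5d to P7d was 2.06 (adjusted p = 0.0215).

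*Itga6*, a laminin receptor subunit of many cell types, started as the highest integrin α gene and fell by P1d. *Itga6* (chr2:71745616-71858416, plus strand) had 72.77, 68.08 and 68.54 FPKM at E18.5d, 47.36, 41.62 and 60.74 FPKM at P1d and 57.10, 48.78 and 57.69 FPKM at P7d. The E18.5d hearts were the 3 highest, and the later stages overlapped. It changed by -0.49 on the log2 scale at P1d against E18.5d (SE 0.12, adjusted p = 0.00959 by limma). At P7d against E18.5d it was -0.35 (adjusted p = 0.0379), a call lost in 11 of 19 alternatives with an adjusted p of up to 0.283, among them leaving out any E18.5d or P7d heart and every rescaling of the columns. From P1d to P7d it was 0.14, and 0.29 without P1d replicate 3 (adjusted p = 0.0312). *Itga3*, a laminin receptor subunit of epithelia, had stage means of 7.85, 9.10 and 7.62 FPKM and did not pass.

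Collagen-binding integrins. *Itga1* and *Itga2*, which both pair with β1 and lie side by side on chromosome 13, fell between E18.5d and P1d, and *Itga1* then rose again. *Itga1* (chr13:114953096-115101964, minus strand) was at 34.74, 33.75 and 33.57 FPKM at E18.5d, 19.31, 17.74 and 19.15 FPKM at P1d and 29.43, 27.96 and 33.86 FPKM at P7d. Every P1d heart was below every other heart. The log2 change was -0.83 at P1d against E18.5d (SE 0.07, adjusted p = 3.46e-05 by limma) and 0.67 at P7d against P1d (adjusted p = 0.000153). At P7d against E18.5d it was -0.16 (adjusted p = 0.0997), and -0.24 without P7d replicate 3 (adjusted p = 0.0203).

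*Itga2* (chr13:114833081-114932100, minus strand), a gene of low level, was at 3.93, 3.96 and 3.31 FPKM at E18.5d, 1.39, 1.41 and 1.92 FPKM at P1d and 2.40, 1.86 and 2.05 FPKM at P7d. The E18.5d hearts were the 3 highest. It fell by 0.88 on the log2 scale to P1d (SE 0.12, adjusted p = 0.000319 by limma), and P7d against E18.5d gave -0.61 (adjusted p = 0.00235). P7d against P1d gave 0.27 (adjusted p = 0.0883), and 0.37 without P1d replicate 3 (adjusted p = 0.0317). *Itga10*, at a mean of 0.868 FPKM, and *Itga11*, at 0.618 FPKM, were below the filter.

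Of the 4 α subunits whose integrins bind the RGD sequence of proteins such as fibronectin, 2 were called lower at P1d than at E18.5d. Of all genes, 27.6% were called lower there. In the fit on the values as deposited none of the 4 passed between P7d and P1d, where 44.2% of all genes did. *Itga5*, the fibronectin receptor subunit, had 35.76 ± 1.84, 30.78 ± 1.52 and 34.01 ± 1.41 FPKM at E18.5d, P1d and P7d (n = 3). Its log2 change at P1d against E18.5d was -0.21 (adjusted p = 0.0217 by limma), which was lost in 6 alternatives (adjusted p up to 0.158), among them median of ratios and leaving out E18.5d replicate 3 or P1d replicate 1 or 3. With median of ratios *Itga5* was instead called higher at P7d than at P1d (0.25, adjusted p = 0.0164). *Itgav*, which pairs with several β subunits, had 23.86 ± 1.37, 19.16 ± 1.40 and 20.49 ± 0.599 FPKM. It fell by 0.30 to P1d (adjusted p = 0.00599). P7d against E18.5d gave -0.21 (adjusted p = 0.0306), lost in 7 alternatives (adjusted p up to 0.713), which were the 3 rescalings and leaving out replicate 1 or 2 of either stage. P7d against P1d gave 0.09 (adjusted p = 0.297), and with median of ratios *Itgav* was called higher at P7d (0.20, adjusted p = 0.0434).

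*Itga8*, a subunit of mesenchymal cells, had stage means of 16.67, 19.39 and 14.60 FPKM and did not pass. P7d against P1d gave -0.38 (adjusted p = 0.059 by limma), and without E18.5d replicate 3, which enters only through the shared spread, the adjusted p was 0.0172. P7d against E18.5d, -0.16, became -0.33 without that heart (adjusted p = 0.0439). *Itga2b*, the platelet fibrinogen receptor subunit, stayed at 0.81 to 1.99 FPKM and did not pass. The sum of 8 platelet markers was 20.4 to 24.27 FPKM at E18.5d, 31.01 to 42.83 at P1d and 21.99 to 24.96 at P7d. Most of that sum was *Pf4*, at means of 18.94, 31.44 and 20.58 FPKM in stage order. Only 2 of the 8 were tested, and 1 was called higher at P1d than at E18.5d (18.4% of all genes were).

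*Itga9*, a receptor subunit for tenascin and osteopontin, rose after P1d. *Itga9* (chr9:118606690-118901003, plus strand) was at 30.01, 34.19 and 30.28 FPKM at E18.5d, 27.28, 29.75 and 28.62 FPKM at P1d and 42.81, 55.33 and 47.93 FPKM at P7d. The P7d hearts were the 3 highest and the most spread. It rose by 0.74 on the log2 scale against P1d (SE 0.09, adjusted p = 0.000275 by limma) and 0.61 against E18.5d (adjusted p = 0.000646). In the 5 hearts with *Xist* at most 1 FPKM the latter was 0.32 (adjusted p = 0.234). P1d against E18.5d gave -0.14 (adjusted p = 0.262), and -0.30 with equal column sums (adjusted p = 0.0384). *Itga4*, a receptor subunit for VCAM-1 and fibronectin, was at 1.57 to 3.06 FPKM. Its change at P1d against E18.5d was -0.35 (adjusted p = 0.115), and without E18.5d replicate 3 it was -0.51 (adjusted p = 0.0287). *Itga4* shares 1124 exon bases with *Cerkl* on the other strand, and the library kit does not mark strand.

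Leukocyte integrins were low throughout. *Itgb2*, the β subunit of white blood cells, was at 1.16, 0.81 and 1.00 FPKM at E18.5d, 1.22, 1.84 and 1.82 FPKM at P1d and 1.46, 1.83 and 1.66 FPKM at P7d. The E18.5d hearts were the 3 lowest, P1d replicate 1 being only slightly above them. The log2 change was 0.41 at P7d (SE 0.13, adjusted p = 0.0276 by limma) and 0.40 at P1d (adjusted p = 0.0358), each against E18.5d. Dropping replicate 2 or 3 of E18.5d or of P7d ended the former call (adjusted p up to 0.0915). The latter was lost in 9 alternatives (adjusted p up to 0.113), among them leaving out E18.5d replicate 2 or 3, P1d replicate 2 or 3, or P7d replicate 3.

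Of the α partners of *Itgb2*, *Itgam* of macrophages and neutrophils had stage means of 0.853, 1.32 and 1.40 FPKM. It gave 0.36 at P7d against E18.5d (adjusted p = 0.0721 by limma), 0.46 with median of ratios (adjusted p = 0.0399) and 0.48 without P7d replicate 1 (adjusted p = 0.0352). It shares 3450 exon bases with the predicted gene *Gm49368* on the same strand, which was at 0.00 to 0.23 FPKM. *Itgal* of lymphocytes and other leukocytes was at 0.87 to 1.54 FPKM and did not pass. *Itgax* (mean 0.188 FPKM) and *Itgad* (mean 0.777 FPKM, 0.28 to 1.52) were below the filter, as were *Itgae* (mean 0.127 FPKM) and its partner *Itgb7* (mean 0.214 FPKM). Part of the *Itgad* exons, 70 bases, lies opposite *Cox6a2*, a heart muscle gene at 394.14 to 467.34 FPKM. With no filter, *Itgae* was the only member below the filter to pass, at P1d against E18.5d (-0.18, adjusted p = 0.0192) and at P7d against E18.5d (-0.14, adjusted p = 0.0479), on 2 to 25 fragments per heart. Nearest to the filter were *Itga10* below it and *Itgal* above it (mean 1.093 FPKM).

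Beside these values, the summed FPKM of 8 macrophage markers was 64.38 to 82.57 at E18.5d, 96.54 to 136.2 at P1d and 89.54 to 97.59 at P7d. Of these 8, 6 were called higher at P1d than at E18.5d and 2 at P7d than at E18.5d, and none lower. The sum of 9 neutrophil markers was 6.29 to 12.46 at E18.5d, 49.37 to 74.01 at P1d and 15.87 to 19.86 at P7d. All 5 neutrophil markers that were tested were called higher at P1d than at E18.5d (18.4% of all genes were). Of these, 4 were called lower at P7d than at P1d (28.6% of all genes were). *S100a8* had stage means of 3.15, 19.75 and 4.18 FPKM and *S100a9* 4.33, 27.19 and 9.19 FPKM. *Elane* was at 0 in 8 hearts and 0.05 FPKM in the other, and *Ly6g* at 0 in 8 hearts and 0.22 FPKM in P7d replicate 1. The sum of 9 lymphocyte markers was 0.32 to 2.52. The part of these cells in the *Itgb2* difference was not tested.

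The other β integrins. *Itgb1*, the common partner of most α subunits above, was the highest member at every stage by its mean. *Itgb1* had 302.65, 284.83 and 285.33 FPKM at E18.5d, 268.31, 225.69 and 276.26 FPKM at P1d and 251.53, 220.09 and 257.19 FPKM at P7d. The E18.5d hearts were the 3 highest. The log2 change at P7d against E18.5d was -0.26 (SE 0.09, adjusted p = 0.0334 by limma), and it was lost in 9 of 19 alternatives (adjusted p up to 0.578), which were no filter, the 3 rescalings and leaving out any E18.5d heart or P7d replicate 1 or 2. *Itgb5*, a partner of αv, had 44.08 ± 6.94, 50.06 ± 13.7 and 45.03 ± 5.39 FPKM and did not pass. P1d replicate 3 was at 34.29 FPKM against 57.28 and 58.62 FPKM in the other P1d hearts, and without it P1d against E18.5d gave 0.40 (adjusted p = 0.035).

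*Itgb8*, a partner of αv that helps to activate TGF-β, fell before P1d. *Itgb8* (chr12:119158022-119238802, minus strand) was at 2.03, 2.22 and 2.60 FPKM at E18.5d, 1.17, 1.29 and 1.53 FPKM at P1d and 1.27, 1.20 and 1.34 FPKM at P7d. The E18.5d hearts were the 3 highest and the later stages overlapped. The log2 change was -0.49 at P1d (SE 0.11, adjusted p = 0.00521 by limma) and -0.53 at P7d (adjusted p = 0.00336), each against E18.5d.

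*Itgb6*, another partner of αv that activates TGF-β and is best known from epithelia, was low at P1d and rose by P7d. *Itgb6* (chr2:60598292-60722643, minus strand) was at 0.46, 7.90 and 0.46 FPKM at E18.5d, 0.20, 0.19 and 0.29 FPKM at P1d and 6.43, 5.97 and 5.64 FPKM at P7d. The P7d hearts lay far above the P1d hearts, and E18.5d replicate 2 lay above them all while the other E18.5d hearts were near the P1d level. P7d was higher than P1d by 2.51 on the log2 scale (SE 0.57, adjusted p = 0.00652 by limma), a 26.5-fold ratio of means. P7d against E18.5d gave 1.39 (SE 0.57, adjusted p = 0.0687). Without E18.5d replicate 2 it gave 2.26 (adjusted p = 7.53e-06). P1d against E18.5d gave -1.12 (adjusted p = 0.137), and -0.25 without that heart (adjusted p = 0.119).

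E18.5d replicate 2 is also the only E18.5d heart without *Xist*. With *Xist* above 1 FPKM as a covariate, *Itgb6* at P7d against E18.5d had an adjusted p of 0.0224 and at P1d against E18.5d changed by -2.03 (adjusted p = 0.0159). In the 5 hearts with *Xist* at most 1 FPKM, where E18.5d replicate 2 is the only E18.5d heart, P7d against E18.5d had the opposite sign (-0.26, adjusted p = 0.462) and P1d against E18.5d gave -2.86 (adjusted p = 0.00883). The P7d hearts had similar *Itgb6* with and without *Xist*. The sum of 8 epithelial markers was 10.19 to 23.64 FPKM at E18.5d, highest in replicate 2, 16.34 to 60.21 at P1d and 10.8 to 13.43 at P7d. The highest sums rest on the airway gene *Scgb1a1*, at 42.14 FPKM in P1d replicate 1 and 8.69 FPKM in E18.5d replicate 2, and without it the sums were 10.19 to 14.95, 16.34 to 18.07 and 10.8 to 13.29. *Epcam*, a defining epithelial gene, had 0.32, 0.43 and 0.00 FPKM in the E18.5d hearts in replicate order, 0.34, 0.06 and 0.04 FPKM in the P1d hearts and 0.00 to 0.05 FPKM in the P7d hearts. *Cdh1* (0.69 FPKM), *Sftpb* (0.63 FPKM) and *Krt18* (8.54 FPKM) were also highest in replicate 2 among the E18.5d hearts. *Krt8*, *Sftpc* and *Krt5* were highest in another E18.5d heart. By their means *Krt18* went from 6.64 to 9.36 FPKM between E18.5d and P7d, and *Krt8* from 4.27 to 2.89 FPKM. Only 3 of the 8 markers were tested. From E18.5d to P7d, 1 passed as a rise and 1 as a fall (12.5% and 36.9% of all genes). The part of epithelial cells or sex in the *Itgb6* values was not tested. *Itgb3*, partner of αv and of the platelet subunit, had stage means of 4.55, 4.62 and 3.97 FPKM and did not pass. *Itgb4*, the β subunit of hemidesmosomes, had 1.20, 1.86 and 1.78 FPKM. It gave 0.38 at P1d against E18.5d (adjusted p = 0.0599), and with median of ratios it was called higher there (0.41, adjusted p = 0.041) and at P7d against E18.5d (0.43, adjusted p = 0.0386). Without P7d replicate 3 the adjusted p at P1d was 0.027.

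Which chains made up each class was then compared, since a share or a ratio within a heart does not depend on the scale of that heart's column. The summed FPKM of the laminin α chains was 199.8 ± 7.84, 198.53 ± 11.5 and 251.52 ± 3.73 at E18.5d, P1d and P7d (SD, n = 3). Within it, *Lama2* made up 26.5% ± 0.57, 42.1% ± 1.35 and 43.0% ± 0.193, and *Lama4* 63.4% ± 0.397, 47.2% ± 2.63 and 48.9% ± 1.04. The main shift in share from *Lama4* to *Lama2* thus lay between E18.5d and P1d, when *Lama2* was higher and *Lama4* lower. Among the β chains *Lamb2* went from 29.7% ± 1.83 over 36.0% ± 0.923 to 41.5% ± 2.70 of a sum that was 187.72, 207.45 and 253.19 FPKM.

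**Figure D3:**
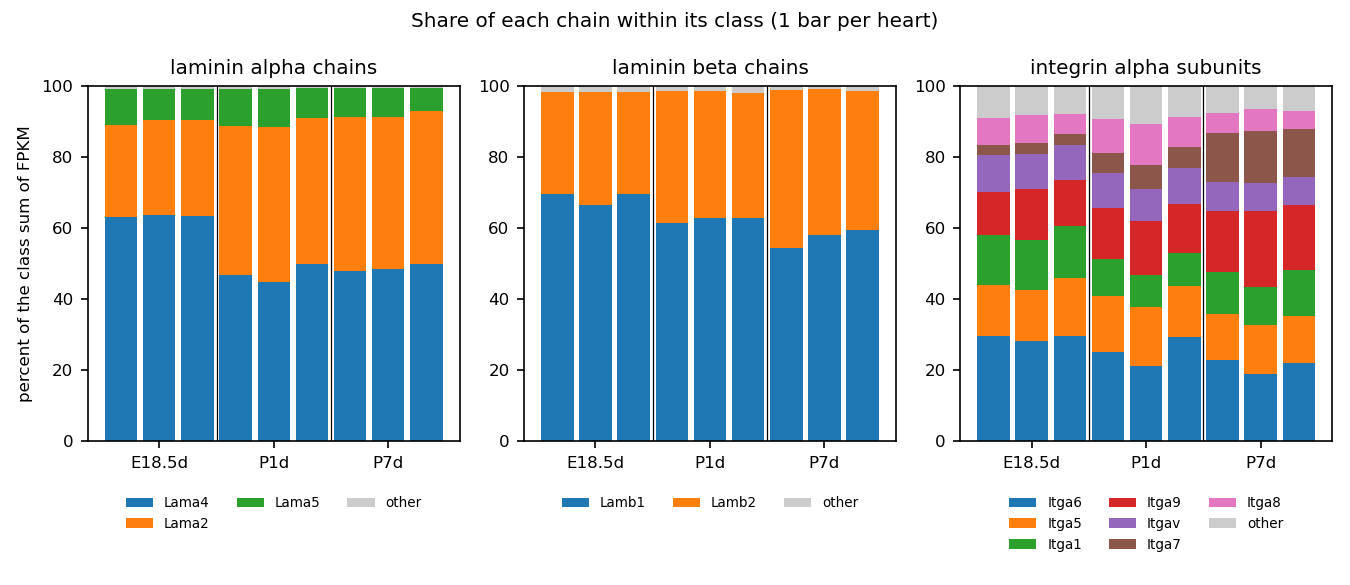
Percent of the summed FPKM of a class (y axis) taken by each chain in each of the 9 hearts (bars, in replicate order within E18.5d, P1d and P7d), for laminin α and β chains and integrin α subunits. *Lama2* takes 26.5% of the α chains at E18.5d and 42.1% at P1d on average, and *Itga7* grows from 3.07% to 13.9% of the integrin α subunits between E18.5d and P7d.

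Of the integrin α subunits, which summed to 239.07, 197.53 and 256.21 FPKM, *Itga7* made up 3.07% ± 0.218, 6.14% ± 0.472 and 13.9% ± 0.57 in stage order. *Itga6* was at 29.2% ± 0.745, 25.2% ± 4.10 and 21.3% ± 2.10, and remained the largest share at each stage by its mean. *Itga9* was at 13.2%, 14.5% and 19.0%, and *Itga1* at 14.2%, 9.50% and 11.9%. *Itgb1* was 83.8%, 81.0% and 80.2% of the β subunits. The β sum was 347.18, 316.68 and 302.9 FPKM.

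Ratios were tested for 8 pairs in 3 comparisons by exact two-sided permutation over hearts. With 3 hearts against 3 the smallest possible p is 0.1, and 17 of the 24 tests reached it (adjusted p = 0.141), so none can pass 0.05. The ratio *Itga7*/*Itga5* was 0.206 ± 0.0118, 0.394 ± 0.0275 and 1.05 ± 0.0259 at E18.5d, P1d and P7d, and *Itga7*/*Itga6* was 0.105 ± 0.00857, 0.25 ± 0.0587 and 0.658 ± 0.0914 (SD, n = 3). The hearts of each stage were apart from those of the others for both, by 2.35 and 2.64 on the log2 scale between P7d and E18.5d. *Lama2*/*Lama4* was 0.418 ± 0.00829, 0.895 ± 0.0778 and 0.880 ± 0.0204. Its hearts at E18.5d were apart from both later stages (log2 difference 1.10 at P1d), which overlapped (-0.02 at P7d against P1d, exact permutation p = 0.8). *Lamb2*/*Lamb1* was 0.434 ± 0.0394, 0.577 ± 0.0217 and 0.728 ± 0.0816, apart in all comparisons.

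*Itga1*/*Itga5* was lower at P1d, 0.611 ± 0.0559, than at E18.5d, 0.953 ± 0.0582, and P7d, 0.896 ± 0.0991, which overlapped. *Lamc1*/*Lamb1* was 1.21 ± 0.00923, 1.10 ± 0.101 and 1.49 ± 0.0568 in stage order, with the 3 stages apart. *Lama5*/*Lama4* was 0.147, 0.211 and 0.154, where only P1d and E18.5d were apart. *Itgb1*/*Itgb5* was 6.68 ± 0.753, 5.53 ± 2.23 and 5.44 ± 0.782 and overlapped in all comparisons, so a difference was not detectable with these hearts.

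**Figure D4:**
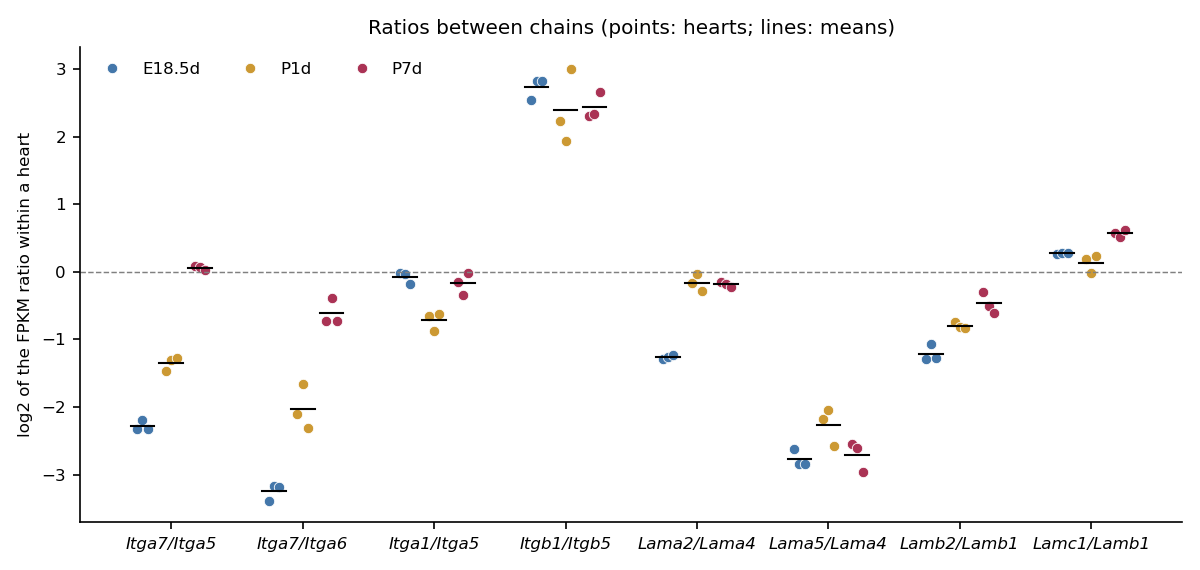
Log2 of the FPKM ratio of 2 chains within a heart (y axis) for the 8 pairs (x axis). Points are hearts coloured by stage and lines are stage means, with the dashed line at equal levels. The *Itga7* pairs rise over 2 log2 units, while *Lama2*/*Lama4* moves between E18.5d and P1d and then stays.

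Partners of the 2 families were taken from lists of known genes. Of 24 genes whose products sit with laminin in or at the basement membrane, 23 were tested. At P7d against E18.5d 12 were higher and 5 lower (12.5% and 36.9% of all genes), with a median log2 change of 0.223 beside -0.173 for all genes. The largest increases were those of *Col15a1*, a collagen of muscle and capillary basement membranes, from 38.59 ± 1.83 to 116.75 ± 3.97 FPKM (log2 change 1.57), *Sgca*, of the dystrophin complex that binds laminin through dystroglycan, from 14.32 ± 1.19 to 31.06 ± 2.53 FPKM (1.07), and *Col4a4*, from 0.800 ± 0.104 to 2.43 ± 0.387 FPKM (0.93). The largest decreases were those of *Col4a6* (-0.56), the heparan sulfate proteoglycan *Sdc4* (-0.53) and *Col18a1* (-0.35), of which the last 2 did not pass with median of ratios (adjusted p = 0.0544 and 0.161). With that scaling 14 genes were higher and 1 lower (21.3% and 20.9% of all genes), with a median of 0.403. At P1d against E18.5d 3 were higher and 5 lower (18.4% and 27.6% of all genes), and 2 and 10 with equal column sums (8.63% and 34.5%). At P7d against P1d 11 were higher and 4 lower (15.5% and 28.6%).

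Of 37 adaptors that couple integrins to actin and to signalling, 34 were tested. At P7d against E18.5d 5 were higher and 10 lower (median -0.034), where 12.5% and 36.9% of all genes were. This balance turned with median of ratios, to 12 higher and 4 lower (median 0.126), as that of all genes moved to 21.3% and 20.9%. *Lims2*, partner of integrin-linked kinase, rose from 10.45 ± 1.26 to 22.87 ± 1.17 FPKM (log2 change 1.06, adjusted p = 0.000467 by limma), followed by *Tns2* (0.50) and the Z-disc protein *Actn2* (0.49). The kinase *Ptk2b* fell from 9.22 ± 0.257 to 3.78 ± 0.358 FPKM (-1.10), followed by *Tgfb1i1* (-0.82) and *Tns3* (-0.72). At P1d against E18.5d 9 were higher and 7 lower (18.4% and 27.6% of all genes), and with equal column sums 2 and 11 (8.63% and 34.5%). At P7d against P1d 5 were higher and 9 lower (15.5% and 28.6%), and 11 and 2 with median of ratios (21.9% and 19.8%).

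Of 30 other integrin ligands, 29 were found by symbol (all but *Nov*) and 25 tested. At P7d against E18.5d 6 were higher and 6 lower (median -0.019), where 12.5% and 36.9% of all genes were. Median of ratios turned this to 9 against 3 (median 0.136), where 21.3% and 20.9% of all genes were. *Vtn*, vitronectin, rose from 0.98 ± 0.175 to 11.76 ± 1.29 FPKM (log2 change 2.69), *Col3a1* from 717.16 ± 31.5 to 1200.67 ± 9.18 FPKM (0.74) and *Ccn1* from 18.43 ± 0.181 to 29.02 ± 4.47 FPKM (0.62). *Spp1*, osteopontin, went from 4.92 ± 3.69 to 0.433 ± 0.170 FPKM (-1.79), *Vcam1*, a ligand of integrin α4β1, from 41.30 ± 2.54 to 17.76 ± 0.607 FPKM (-1.17) and *Fbln5* from 29.16 ± 8.61 to 15.58 ± 0.809 FPKM (-0.82, not past the threshold with median of ratios, adjusted p = 0.0582). At P1d against E18.5d 6 were higher and 5 lower (18.4% and 27.6% of all genes), which turned to 5 and 9 with equal column sums (8.63% and 34.5%). At P7d against P1d 9 were higher and 7 lower (15.5% and 28.6%).

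Markers of the heart's own cells were checked beside these values. The summed FPKM of 8 cardiomyocyte markers was 15980 to 16390 at E18.5d, 21920 to 22870 at P1d and 21520 to 21730 at P7d. Without *Myh6*, whose mean went from 3219.5 to 8318 FPKM, it was 12770 to 13200, 15510 to 16020 and 12960 to 13620. Of these 8, 6 were called higher at P7d than at E18.5d, and *Tnnt2* and *Nppa* lower. For this comparison, which the next lists share, 12.5% of all genes were called higher and 36.9% lower. The sum of 8 endothelial markers was 434.3 to 470.2, 503.1 to 547.2 and 562.3 to 580.6, that of 8 fibroblast markers 1549 to 1655, 1363 to 1865 and 2331 to 2367, and that of 9 smooth muscle and pericyte markers 858 to 1052, 905.5 to 981.4 and 859.1 to 948.4. Of the endothelial markers 5 were called higher at P7d than at E18.5d, and *Emcn* and *Flt1* lower. Of the fibroblast markers 4 were called higher there and none lower. *Col3a1* went from 717.16 to 1200.7 FPKM by its mean, while *Pdgfra* went from 27.85 to 27.53 and *Tcf21* from 26.30 to 24.15 FPKM. Among the smooth muscle and pericyte markers 4 were called higher and 3 lower. Most of their sum was *Acta2* (mean 700.62 to 551.28 FPKM), while *Rgs5* went from 34.83 to 102.81 and *Cnn1* from 31.78 to 6.01 FPKM. None of these markers was at 0 in all hearts of a stage. At P1d against E18.5d, 7 cardiomyocyte markers were called higher and none lower. In that comparison 3 endothelial markers were higher and 2 lower, and 3 smooth muscle and pericyte markers were higher and 2 lower. Of the fibroblast markers 2 were lower and none higher. Of all genes, 18.4% were higher and 27.6% lower. The part of cell numbers in the changes of *Itga7*, *Lama2* and *Lamb2*, or in the falls of *Lama4*, *Itga1*, *Itga2* and *Itga6* by P1d, was not tested. The values are per gene and do not separate splice forms, which *Itga6* and *Itga7* are known to have.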

How the data were processed

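RNA-seq of 9 hearts (2 µg of total RNA each, a library kit that does not mark strand) was used. The authors deposited FPKM values of 48820 genes, 1 column per heart. The submitters' notes name STAR, GRCm38 and mm10, and the counting tool and annotation are not given in the sources used here. Samples were grouped by the stage in their labels. Members and lists were chosen with earlier results of these data known.

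Positions came from GENCODE M21 (GRCm38) by identifier without version, which held 48058 identifiers and all 37 members, 28 in the same version. RefSeq promoters were found for 23 members. For 13618 genes whose mean reached 1 FPKM, log2(FPKM + 1) was fitted with limma 3.58.1 in R 4.3.3 (eBayes with trend, 3 stages in 1 fit), p-values were adjusted by Benjamini-Hochberg over these genes and called under 0.05. Adjusted p-values judge a difference of stage means against the spread between hearts within a stage, pooled over the 3 stages and moderated across genes. In simulated data 200 of 13618 genes were changed. Of these, limma called 90 of 100 changed by 1 on the log2 scale and 47 of 100 changed by 0.5 (P7d against E18.5d). In the hearts 49.4% of genes passed there, and the adjustment depends on that share, so recovery can differ. Ratios were tested in Python 3.11.15 with scipy 1.17.1.

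Depth was read from low FPKM, of which 86.6% to 91.6% were whole multiples of 1 fragment, against 25.3% to 32.0% by chance. At this depth 3 fragments on a kilobase are 0.0649 to 0.118 FPKM, for counting error only. Values of every heart were given for members past the threshold with a log2 change of 0.5 or more in either direction and hearts apart, and for others that the text singles out, chosen after their values were seen. From each list the 3 largest called changes in each direction at P7d against E18.5d were named. Alternatives were 3 rescalings (median of ratios, quantile normalization, equal column sums), a filter at 5 FPKM or none, a pseudocount of 0.1, eBayes without trend, only the 2 stages compared, a replicate block, an *Xist* covariate, the 5 hearts with *Xist* at most 1 FPKM, and leaving out each heart. Of the members, 1 was counted but is not reported here.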

Additional observations from a re-analysis of the deposited data

How the results depend on the processing

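Of the 33 calls among members, 25 held under every alternative other than the 5 hearts with *Xist* at most 1 FPKM, and 8 were lost at least once, and no call of a single member reversed. Of 54 comparisons of members that did not pass, 19 passed under at least 1 alternative. At P7d against E18.5d, 6 members were higher, but 1 in the 5 hearts, and 6 were lower, but 3 with median of ratios, quantile normalization or equal column sums, 0 in the 5 hearts, and 3 to 6 when 1 heart was left out (3 without replicate 1 or 2 of E18.5d or of P7d). At P1d against E18.5d, 4 were higher, but 2 with equal column sums and 0 in the 5 hearts, and 8 were lower, but 5 with a mean of at least 5 FPKM and 2 in the 5 hearts. At P7d against P1d, 8 were higher, but 2 in the 5 hearts, and 1 was lower, but 2 (*Itga8* being added) with a mean of at least 5 FPKM or only the 2 stages compared, 0 in the 5 hearts and 1 to 2 when 1 heart was left out (2 without E18.5d replicate 3). The 5 hearts leave 1 heart at E18.5d and at P7d, whose spread is assumed to be that of P1d. Few calls were therefore possible there for any gene, and the smaller counts are no result about the members. With quantile normalization 2889 of all 13618 genes were higher and 2937 lower at P7d against E18.5d. With a mean of at least 5 FPKM, 2689 of 9130 genes were lower at P1d against E18.5d and 3081 at P7d against P1d. Leaving out 1 heart turned the sign of 3 small ratio differences at exact permutation p = 0.8: *Itgb1*/*Itgb5* at P7d against P1d (-0.18 to 0.35), *Lama2*/*Lama4* at P7d against P1d (-0.0838 to 0.0415) and *Lama5*/*Lama4* at P7d against E18.5d (-0.0137 to 0.192). The replicate numbers did not pair the hearts (correlation of same-numbered deviations across genes -0.055 to 0.112, of others -0.182 to 0.129). With the number as a replicate block, 6 members were higher and 6 lower, 3 and 7, and 8 and 2, in the order of comparisons above. Of all 13618 genes, 1706 were then higher and 4961 lower, 2487 and 3686, and 2040 and 3817. Counting error weighs more at low FPKM, and the cause of the changes was not tested.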
